A study of Mus musculus with 4 samples.

Results

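The mitochondrial respiratory chain subunits described here were the 86 genes whose single gene symbol on the array platform starts with Ndufa, Ndufb, Ndufc, Ndufs, Ndufv, Sdh, Uqcr, Cox4 to Cox8 or Atp5, without the assembly factors named Ndufaf. They were chosen by symbol and not by any measured value, and were covered by 175 of 34945 probe sets, or 86 of 18193 genes. The RNA came from CD4+ YFP+ Ly5.2+ mouse T cells on 4 expression arrays. All cells had been treated with HR-MMPCreGFP, a Cre-carrying preparation, and recovered 6 weeks after adoptive transfer into host mice. In 2 samples (Foxp3-deleted) the Foxp3 gene was flanked by loxP sites, which Cre recombines, and in the other 2 (wild type) Foxp3 was intact, so the control cells had also been exposed to Cre. Foxp3 encodes the transcription factor that defines regulatory T cells, and the comparison asks what mature regulatory T cells express after losing it. The labels do not say whether the samples of a group came from separate mice, so every p-value measures only the spread between these samples, and 2 arrays per group limit the precision.

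The respiratory chain sits in the inner mitochondrial membrane. Complex I (NADH dehydrogenase) and complex II (succinate dehydrogenase) pass electrons to coenzyme Q, complex III hands them to cytochrome c and complex IV (cytochrome c oxidase) gives them to oxygen. Complexes I, III and IV pump protons as they do so, and complex V (ATP synthase) uses the returning protons to make ATP. Most subunits are encoded in the nucleus and are the genes measured here. Regulatory T cells are known to depend on oxidative phosphorylation more than activated conventional T cells do.

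Foxp3 itself had intensities of 438 and 430 on the deleted arrays and 2694 and 2404 on the wild-type arrays. The groups did not overlap, with a log2 difference of -2.55 (SE 0.28, n = 2 per group) and a limma adjusted p of 0.0749. Its direction went with the labels, although the position of its probe set relative to the deleted segment was not known. The T cell markers listed were all above the filter on level (8 of 8 genes measured, summed intensity 14448 to 18275), as was 1 of 5 B cell markers, with Cd79a, Ms4a1, Pax5 and Blk below it. The summed B cell intensity was 48.9 and 60.9 in the deleted samples and 132 and 122 in wild type, and Cd79b had a log2 difference of -2.04 without overlap. Of the natural killer markers, 2 of 3 were above the filter, and their summed intensity was 2580 and 1251 in the deleted samples, higher than the 494 and 500 of wild type, and Ncr1 was below it. That sum was carried by Nkg7 (log2 11.22 and 10.23 against 8.64 and 8.80), while Klra8 overlapped (7.57 and 5.51 against 6.47 and 5.66). Of the myeloid markers, 5 of 8 were above it, and their sum was 2282 and 726 in the deleted samples, with 765 and 625 in wild type, while Itgam, Cd14 and Cd68 were below it. The part of these other cells in the results was not tested, and in bulk RNA fewer cells of a type and less RNA per cell cannot be told apart.

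RNA quality differed with the group. Labelling starts near the 3′ end of a transcript, and the log2 ratio of a 3′ to a 5′ control probe set measures how much signal is lost toward the 5′ end. For beta-actin that log2 ratio was 4.91 and 4.47 on the deleted arrays and 7.26 and 6.60 on the wild-type arrays. For Gapdh it was 5.89 and 4.17 against 7.24 and 7.08. Wild-type replicate 1 had the highest ratio on both controls. Both wild-type arrays thus carried the stronger 3′ bias, which cannot be told apart from genotype for any gene below, and its part in the results was not tested.

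Transcripts of the respiratory chain were present at clear levels and differed little between the groups as a whole. Of the 86 genes, 76 passed the filter (a mean log2 intensity of at least 4 over all 4 arrays), and their lowest value on any array was 4.61. For each gene the brightest probe set on average was used, and 44 of the 76 had a higher mean in deleted cells and 32 a lower one, so 57.9% were higher against 48.1% of all 8629 genes tested. The median log2 difference, deleted minus wild type, was 0.08 against -0.02 over all genes tested. The middle of the members ran from -0.12 to 0.39 (quartiles) and that of all genes from -0.35 to 0.35.

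No member passed an adjusted p of 0.05 in the limma fit over all genes, in which 0 of 8629 genes (0%) did. At an unadjusted p under 0.05 there were 3 members, Uqcrh, Atp5b and Atp5e, and 859 genes in all. The lowest adjusted p of a member was 0.388. In 19 members both deleted values lay above both wild-type values, or 25% of those tested against 17.7% of all genes. In 14 members both lay below, or 18.4% against 22%. Over both directions that made 33 members, 43.4% against 39.7%, which is near the background.

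Most differences were small. The differences of 62 of the 76 members lay within 0.5 of 0 on the log2 scale, and 3 lay beyond 1: Atp5b, Cox8a and Uqcrh. The median gap between the 2 replicates was 0.27 in the deleted group and 0.26 in wild type, against a median absolute difference between the groups of 0.25. The difference between groups was larger than both replicate gaps in 24 of 76 members and in 2165 of 8629 genes. One array stood apart: wild-type replicate 1 was the lowest of the 4 on 29 members, 38.2% of them, against 27.5% of all genes. Without wild-type replicate 1 the members' median was 0.0054 and 39 of 76 were higher. Without deleted replicate 1 the median was 0.034 and 41 of 76 were higher.

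**Figure D1:**
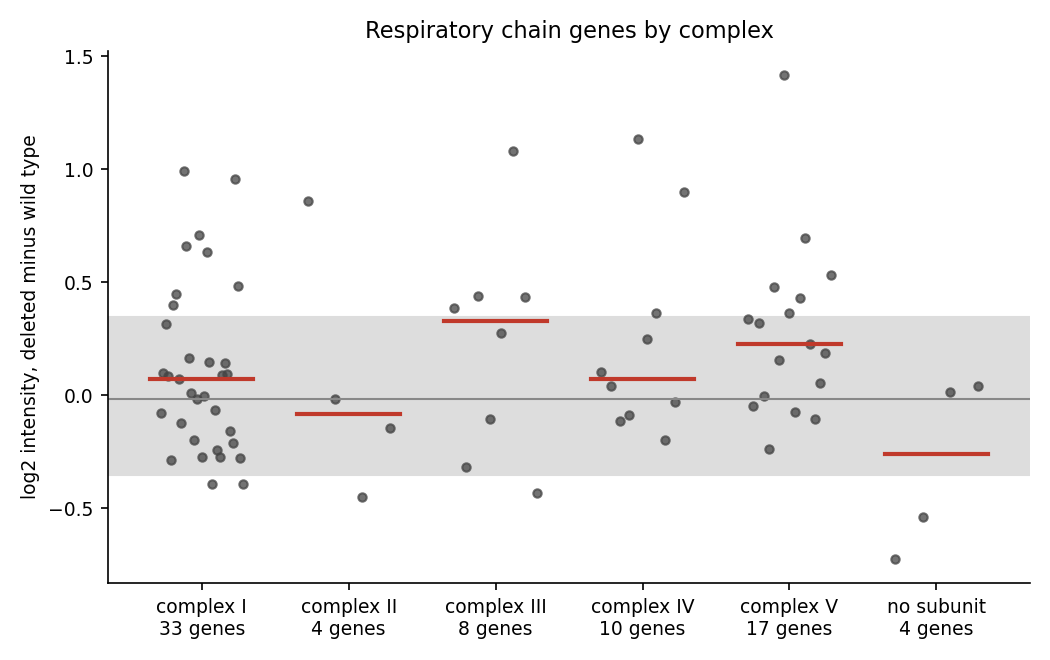
Log2 difference, deleted minus wild type, of each member tested (points), grouped by complex with the median of each (red line); the grey band spans the quartiles of all genes tested and the grey line their median. The points lie on both sides of 0 in every complex; the median over all 76 members is 0.08, with Atp5b at 1.42 the highest and Sdhaf1 at -0.72 the lowest.

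To show the sequence context of the members, the 250 bases before the transcription start were taken from RefSeq (mouse build GRCm38.p6) for the 71 members with such a window. Both strands were searched for 4 motifs of factors known at respiratory chain promoters or, for the forkhead motif, of the family to which Foxp3 belongs. The NRF1 motif (GCGCA, then any base, then GCGC) was found in 11 members (15.5%), against 10.8% of 7088 tested genes with a window and 4.23% of all 27025 genes in the table. The ETS motif CCGGAAGT, read by GABP, was found in 3 members (4.23%) against 7.89% of tested genes. The YY1 motif AAGATGGC was found in 1 member (1.41%) against 2.65%, and the forkhead motif GTAAACA in 1 member (1.41%) against 2.68%. These member shares include members below the filter. Among the 65 tested members with a window, the shares in the same order were 15.4%, 4.62%, 1.54% and 1.54%. The motifs were counted separately and overlaps between them were not removed. Each match describes letters in the window, not a bound site or a cause, and members of both directions carried matches. One promoter is given with the results for a member of each of complexes II, III, IV and V whose window holds a motif, 5′ to 3′ on the gene's strand, with the matched letters in capitals. These 4 were picked after the values of the members were known.

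Complex I accepts electrons from NADH and is the largest of the complexes, with 36 of the genes, of which 33 were tested. Of these, 18 had a higher and 15 a lower mean in deleted cells, and the median log2 difference was 0.07. The groups did not overlap in 6 higher members (18.2%) and 7 lower members (21.2%), near the 17.7% and 22% of all genes. Without wild-type replicate 1 the median was -0.02.

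The nuclear core subunits of complex I, which carry electrons from NADH, are named Ndufv or Ndufs, names they share with some accessory subunits. Of 9 genes so named and tested, 7 had a higher mean in deleted cells, with a median of 0.32, while those named Ndufa, Ndufb or Ndufc had 11 of 24 higher and a median of -0.03. The split was noticed after the values were seen and was not tested. Ndufs1, which holds several iron-sulfur clusters, had log2 values of 8.94 and 8.34 in deleted and 6.64 and 8.65 in wild type. Those groups overlapped: the difference of 0.99 (SE 0.72, limma adjusted p = 0.743) was set by wild-type replicate 1, and without that array it was -0.01. Ndufs3, also a core subunit, had 7.78 and 7.29 against 6.61 and 7.05, a difference of 0.71 (SE 0.39, limma adjusted p = 0.671) with groups that did not overlap.

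Ndufs4 and Ndufs5 are accessory subunits. Ndufs4, which is needed for a stable NADH-oxidising arm, had 8.75 and 7.73 against 6.85 and 7.71, so the lower deleted value lay just above the higher wild-type value, with a difference of 0.96 (SE 0.53, limma adjusted p = 0.671). Its other probe sets gave differences of -0.02 and 0.50. Ndufs5 had 7.53 and 7.39 against 6.93 and 6.66, a difference of 0.66 with an SE of 0.35. The remaining core subunits were flat or mixed on their brightest sets. Ndufv1, which binds NADH, had a log2 difference of -0.24, Ndufv2 of 0.14, Ndufs7 of 0.09 and Ndufs8 of -0.02, and the groups overlapped in all 4. A dimmer Ndufv2 set had a difference of 1.05 and a dimmer Ndufs8 set 0.46, both higher without overlap. The other sets of these 4 genes above the filter overlapped. Of the other complex I genes, Ndufa4l2, Ndufb1 and Ndufb4 were below the filter, with means of 1.63, 3.31 and 2.15.

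Among the accessory subunits Ndufa3 was the one with the lowest p. It had log2 values of 12.61 and 13.17 in deleted cells and 12.12 and 12.40 in wild type, a difference of 0.63 (SE 0.26, limma adjusted p = 0.535). A second probe set had 12.57 and 13.10 against 11.94 and 12.22, a difference of 0.75, so neither overlapped, and both stayed on the same side. The accessory subunits Ndufa5 and Ndufb6 had lower means in deleted cells. Ndufa5 had 11.23 and 11.01 against 11.57 and 11.44, a difference of -0.39 (SE 0.24), and Ndufb6 had 11.39 and 11.08 against 11.52 and 11.73, also -0.39 (SE 0.25). Neither overlapped. Ndufa5's second probe set had values of 7.11 and 6.53 against 6.82 and 6.82, which overlapped.

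Several lower members were modest and without overlap on their brightest probe set: Ndufb8 and Ndufb5 at -0.27, Ndufa12 at -0.27 and Ndufb9 at -0.21. The gap was narrow for Ndufa12 (higher deleted value 12.19, lower wild-type value 12.22) and for Ndufb5 (12.04 and 12.08). The dimmer Ndufa12 sets above the filter had -0.15 and -0.23, both overlapping. For Ndufb5 and Ndufb9 the second probe set lay higher without overlap instead, at 0.69 and 0.25. Ndufab1, the acyl carrier protein that also serves mitochondrial fatty acid synthesis, had 9.08 and 7.96 against 7.93 and 8.22, which overlapped. Its dimmer sets above the filter had differences of -0.23 and -0.17, both lower without overlap, the latter with a mean close to the filter. Ndufa4, first assigned to complex I and now known as a subunit of complex IV, had 9.96 and 9.99 against 9.93 and 10.03 and so did not separate. Ndufb11, Ndufa1 and Ndufa13, all accessory, had differences of 0.01, -0.06 and -0.08.

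**Figure D2:**
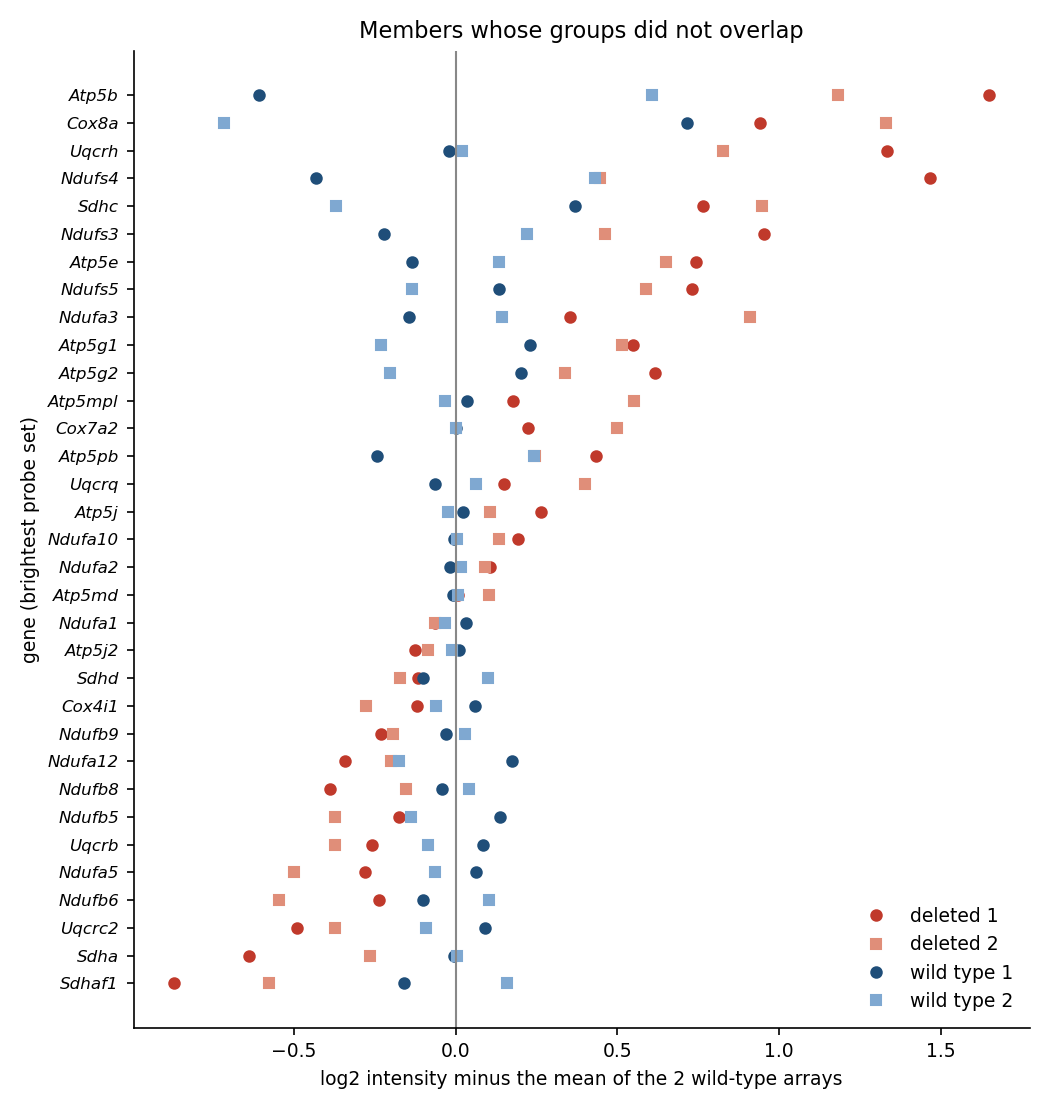
Log2 intensity on each array minus the mean of the 2 wild-type arrays, one line per gene, for the 33 members whose groups did not overlap, sorted by their difference. Red points are deleted arrays and blue points wild-type arrays. The deleted points lie to the lower side in 14 genes and to the higher side in 19. Atp5b has the largest difference between group means, 1.42.

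Complex II, which is also the citrate cycle's succinate dehydrogenase, had 4 subunits, all tested, of which 1 had a higher and 3 a lower mean, with a median of -0.08. That median was 0.21 with a gene's probe sets averaged and 0.06 without wild-type replicate 2, so it has no settled sign. Sdha, the flavoprotein that oxidises succinate, had log2 values of 10.80 and 11.17 in deleted and 11.43 and 11.44 in wild type. Those groups did not overlap, and the difference was -0.45 (SE 0.26, limma adjusted p = 0.681). A second Sdha probe set pointed the other way, with 10.02 and 9.89 against 8.73 and 9.90, a difference of 0.64 with overlapping groups. The mean over both sets was 0.10, so no direction can be given for Sdha. Its promoter window holds the NRF1 motif 3 times, starting 98, 55 and 10 bases before the start.

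Sdha, chr13:74350241-74350490, minus strand: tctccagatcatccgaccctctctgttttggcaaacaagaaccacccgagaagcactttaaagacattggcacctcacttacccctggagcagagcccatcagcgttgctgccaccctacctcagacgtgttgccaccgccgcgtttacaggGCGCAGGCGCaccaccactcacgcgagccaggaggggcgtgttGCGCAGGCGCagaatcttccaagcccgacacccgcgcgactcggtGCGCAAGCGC

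Sdhb, the iron-sulfur subunit, had values of 11.30 and 11.09 against 11.02 and 11.40, which overlapped. The membrane anchor Sdhc had 6.70 and 6.89 against 6.31 and 5.57, a difference of 0.86 (SE 0.41, limma adjusted p = 0.610), without overlap. Its second probe set had 5.31 and 5.34 against 5.57 and 5.51, lower without overlap, so the sets disagreed. The other anchor, Sdhd, had 7.37 and 7.31 against 7.38 and 7.59 on one set and 7.44 and 6.28 against 4.99 and 6.63 on the other, with differences of -0.14 and 1.05. Sdhb was thus the subunit of complex II with a single set above the filter, and the other 3 had sets of opposite sign. The Sdh-named genes that are not subunits are assembly factors (Sdhaf1 to Sdhaf4), with a median of -0.26 over 4. Of them Sdhaf1, which helps to load iron-sulfur clusters into Sdhb, had 6.25 and 6.54 against 6.96 and 7.28. That difference of -0.72 (SE 0.36, limma adjusted p = 0.633) was the lowest of all members.

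Complex III takes electrons from coenzyme Q. It had 8 genes tested, 5 higher and 3 lower, with a median of 0.33. That median was 0.09 when probe sets of a gene were averaged and -0.09 over the single probe sets, so its direction depends on the choice of probe set, and it was 0.08 without wild-type replicate 2. Uqcrh, the hinge subunit that helps cytochrome c dock, had the lowest p of any member. Its log2 values were 10.09 and 9.58 in deleted and 8.74 and 8.78 in wild type. The groups did not overlap, and the difference was 1.08 (SE 0.33, limma adjusted p = 0.388). A second probe set had 9.45 and 8.74 against 8.76 and 8.57, a difference of 0.43 with overlap, in which only deleted replicate 1 stood above the rest. The brighter set shares probes with other transcripts by its name, so signal from near-identical copies cannot be separated. The Uqcrh promoter window holds the ETS motif on the opposite strand, starting 11 bases before the start.

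Uqcrh, chr4:116075071-116075320, minus strand: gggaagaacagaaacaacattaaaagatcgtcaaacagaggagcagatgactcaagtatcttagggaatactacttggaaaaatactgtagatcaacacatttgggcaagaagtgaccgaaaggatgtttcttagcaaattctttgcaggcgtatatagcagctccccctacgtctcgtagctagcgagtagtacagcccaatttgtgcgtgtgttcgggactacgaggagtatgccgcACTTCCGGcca

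The core proteins Uqcrc1 and Uqcrc2 carry the structural base of the complex. Uqcrc2 had log2 values of 12.51 and 12.63 in deleted and 13.09 and 12.91 in wild type, all deleted values lower, with a difference of -0.43 (SE 0.19, limma adjusted p = 0.554). Its dimmer probe set had a difference of -0.09. Uqcrc1 had 9.16 and 9.48 against 9.22 and 8.64, which overlapped, with a difference of 0.39. Uqcrb, the ubiquinone-binding subunit, had 14.01 and 13.90 against 14.36 and 14.19, lower without overlap at -0.32 (SE 0.15, limma adjusted p = 0.607). The Rieske iron-sulfur protein Uqcrfs1 had 8.73 and 7.61 against 7.21 and 8.26, and the replicates of each group lay further apart than the group means. Uqcr10 had a difference of 0.43 on its brightest set, with overlap, and of -0.37 and -0.49 on the other sets, both without overlap. Uqcr11 and Uqcrq, small supporting subunits, had -0.10 and 0.28.

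Complex IV reduces oxygen and has isoforms that differ between tissues. Of its 17 genes, 10 were tested, 6 higher and 4 lower, with a median of 0.07. The median was 0.32 with a gene's probe sets averaged and -0.04 without wild-type replicate 1. The 7 genes below the filter were Cox4i2, Cox6a2, Cox6b2, Cox7a1, Cox7b2, Cox8b and Cox8c. These are the isoforms known from lung, heart, muscle or testis. The broadly expressed isoforms Cox4i1, Cox6a1, Cox6b1, Cox7a2 and Cox8a were above the filter. Values below the filter lay between 2.05 and 3.99, the last being Cox6b2 on wild-type replicate 1.

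Cox4i1, a large nuclear subunit that binds ATP, had log2 values of 12.45 and 12.29 in deleted and 12.63 and 12.50 in wild type, lower without overlap at -0.20 (SE 0.20, limma adjusted p = 0.806). Cox5a and Cox5b, subunits needed for assembly, had differences of 0.25 and -0.03, and Cox6a1 and Cox6b1 had 0.10 and -0.11. All 4 of these overlapped on their brightest sets. The second Cox6a1 set had 12.02 and 12.45 against 11.68 and 11.22, a difference of 0.79 without overlap. Among the dimmer Cox5b sets, differences of -0.67 and 0.19 were without overlap. Cox7a2, the broadly expressed isoform of subunit 7a, had 13.05 and 13.32 against 12.83 and 12.83, a difference of 0.36 (SE 0.19, limma adjusted p = 0.648). Its second set had 10.44 and 10.64 against 10.02 and 10.02, a difference of 0.52. Both Cox7a2 sets were clear of overlap, and the wild-type replicates nearly coincided in each. Its promoter window holds the forkhead motif, starting 212 bases before the start.

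Cox7a2, chr9:79759854-79760103, minus strand: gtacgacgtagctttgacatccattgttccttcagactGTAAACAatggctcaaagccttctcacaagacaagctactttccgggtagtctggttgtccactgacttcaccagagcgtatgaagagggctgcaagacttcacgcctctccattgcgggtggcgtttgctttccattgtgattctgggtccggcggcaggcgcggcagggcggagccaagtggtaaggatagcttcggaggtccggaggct

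Cox7a2l, which joins complexes III and IV into supercomplexes, had 11.98 and 11.42 against 11.69 and 11.87, which overlapped. The largest differences on brightest sets in complex IV came with a replicate far from its partner. Cox8a had 6.41 and 6.80 in deleted and 6.19 and 4.75 in wild type, a difference of 1.14 (SE 0.56, limma adjusted p = 0.632) and 0.42 without wild-type replicate 2. Cox7c had 7.75 and 6.46 against 4.61 and 7.80, a difference of 0.90 (SE 1.11, limma adjusted p = 0.853). Its wild-type replicates lay on either side of both deleted values, and the difference was -0.70 without wild-type replicate 1. Cox6c had a difference of 0.04 on its brightest set, with overlap, and 0.56 on the other, without.

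Complex V had 17 genes tested, of which 12 had a higher and 5 a lower mean in deleted cells, with a median of 0.23. The groups did not overlap in 8 higher members (47.1%, against 17.7% of all genes) and 1 lower member (5.88%, against 22%). Atp5md and Atp5pb are among the 8 by a very small gap. Their lower deleted and higher wild-type values were 11.1501 and 11.1492 for Atp5md and 12.5352 and 12.5338 for Atp5pb. Atp5a1, Atp5c1, Atp5d, Atp5h, Atp5j2 and Atp5o had probe sets of opposite sign, while those of Atp5k and Atp5pb had the same sign. Without wild-type replicate 1 the median was 0.10. Atp5b, the catalytic beta subunit that makes ATP, had the largest difference of all members. Its log2 values were 10.24 and 9.77 in deleted and 7.98 and 9.19 in wild type. No values overlapped, and the difference was 1.42 (SE 0.50, limma adjusted p = 0.442). It was 0.81 without wild-type replicate 1 and 2.02 without wild-type replicate 2, so its size depends on which of the wild-type arrays is used.

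The other subunits of the catalytic head were mixed. Atp5a1, the alpha subunit, had 11.87 and 12.18 against 12.34 and 12.18, a difference of -0.24, with differences of 0.16 and -0.86 on its dimmer sets. Atp5c1, the gamma subunit that forms the rotor shaft, had 13.00 and 11.89 against 11.99 and 12.27, and deleted replicate 1 alone was high. Its second set had a difference of -0.97, without overlap, the widest disagreement between sets of a gene among the members. Atp5d, the delta subunit, had 12.10 and 12.47 against 12.30 and 12.28, which overlapped. Its second set had 11.00 and 11.00 against 10.62 and 10.51, a difference of 0.44 without overlap. Atp5e, the epsilon subunit at the foot of the shaft, had 11.37 and 11.28 against 10.49 and 10.76, a difference of 0.70 (SE 0.25, limma adjusted p = 0.462). Both deleted values of Atp5e were above both wild-type values and lay close together.

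The membrane ring of complex V is made of identical copies of subunit c, which is encoded by 3 genes. Atp5g1 had log2 values of 8.80 and 8.77 in deleted and 8.48 and 8.02 in wild type, a difference of 0.53 (SE 0.35). Atp5g2 had 10.06 and 9.78 against 9.65 and 9.24, a difference of 0.48 (SE 0.32). Atp5g3 had 13.28 and 13.12 against 12.72 and 13.23, a difference of 0.23. Atp5g1 and Atp5g2 were higher without overlap and Atp5g3 overlapped. Without wild-type replicate 1 the Atp5g3 difference was -0.03. The Atp5g2 window holds the NRF1 motif, starting 42 bases before the start.

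Atp5g2, chr15:102671048-102671297, minus strand: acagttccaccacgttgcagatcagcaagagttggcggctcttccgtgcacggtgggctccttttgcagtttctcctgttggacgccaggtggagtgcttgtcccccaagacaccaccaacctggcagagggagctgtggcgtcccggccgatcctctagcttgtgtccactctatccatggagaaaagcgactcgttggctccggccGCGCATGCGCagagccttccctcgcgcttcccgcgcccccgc

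The stator subunits, which hold the head still against the ring, gave small differences on their brightest sets. Atp5pb had 12.72 and 12.54 against 12.05 and 12.53, a difference of 0.34 (SE 0.25) without overlap, and 1.34 on its dimmer set, with overlap. Atp5h had -0.05, Atp5o -0.07 and Atp5j 0.19. The dimmer sets of Atp5h and Atp5o had 0.51 and 0.43, both without overlap. Of the small membrane subunits, Atp5mpl had 9.75 and 10.12 against 9.60 and 9.54, which separated by 0.36. Atp5l had 0.43 and Atp5k 0.16, both overlapping. Atp5md had 0.06, barely without overlap, and Atp5j2 was the lower member without overlap at -0.10.

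Different probe sets of a gene often disagreed. Among 42 members with at least 2 probe sets above the filter, the sets had the same sign in 25 (15 all higher, 10 all lower) and opposite signs in 17. The median spread between the highest and lowest set of a gene was 0.51 and the widest was 1.29, at Atp5c1, beside a median absolute difference between the groups of 0.25 over all members tested. In 31 of the 42 the median of the dimmer sets lay above the brightest, by a median of 0.18 over the 42. Every set was higher without overlap in 2 genes, Cox7a2 and Ndufa3, and lower without overlap in none. Over all 140 member probe sets above the filter, 84 were higher and 56 lower with a median of 0.10, and 60.0% were higher against 50.5% of 13999 probe sets tested. The groups did not overlap in 36 higher sets (19% of all probe sets did so) and in 22 lower sets (20.8% of all), 58 together against 39.9%, and 0% passed the adjusted threshold. Averaging the sets of each gene gave 52 of 76 higher with a median of 0.18. Probe sets with _s_at or _x_at in their name share probes with other transcripts and were the brightest for 14 and 8 members, so near-identical copies remain uncertain there.

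**Figure D3:**
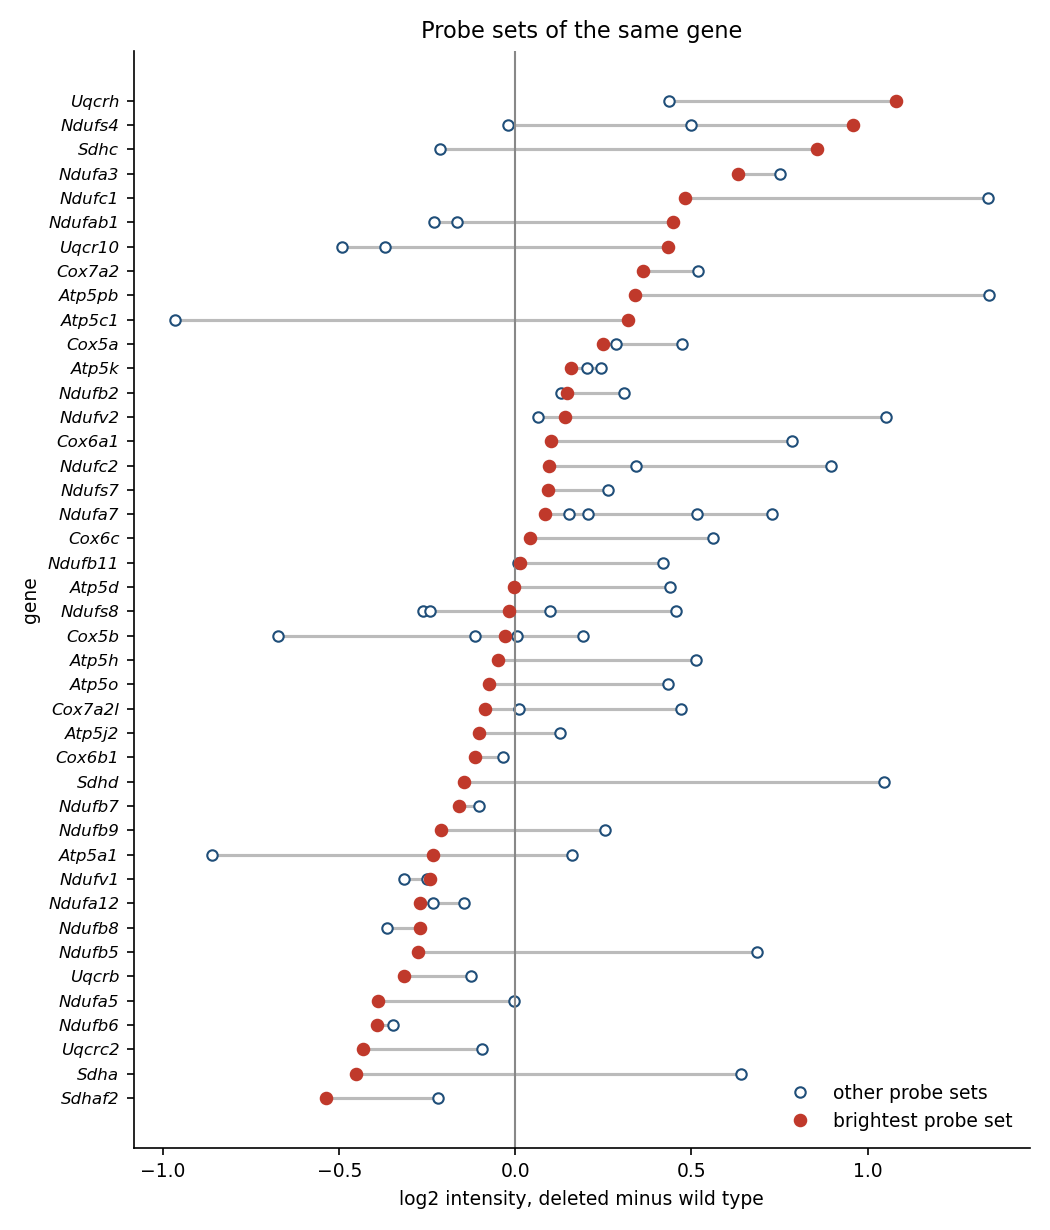
Log2 difference, deleted minus wild type, of every probe set above the filter for the 42 members with at least 2, each gene on its own line with the brightest set marked. Opposite signs occur in 17 of the 42, and the points of Atp5c1 are the farthest apart at 1.29.

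**Figure D4:**
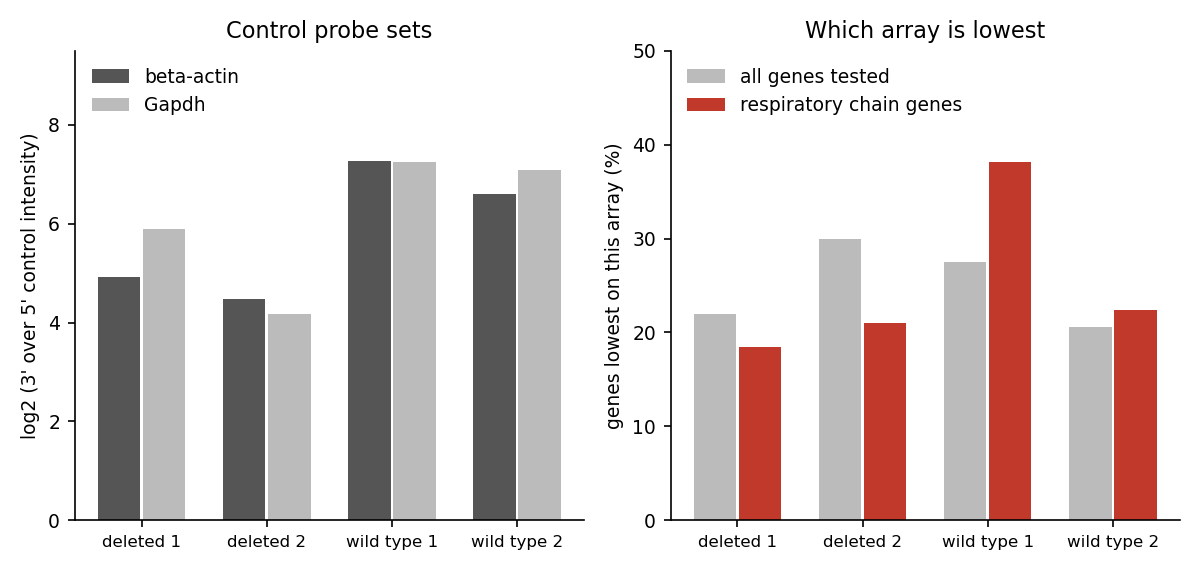
Left, bars of the log2 ratio of the 3′ to the 5′ control probe set of beta-actin and Gapdh on each array; right, the percent of genes that are lowest on each array, for all genes tested and for the respiratory chain members. Both wild-type arrays lie above both deleted arrays on both controls, and wild-type replicate 1 is lowest for 38.2% of members against 27.5% of all genes.

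Genes that build and supply the chain were described in the same way, as 7 lists taken from textbook knowledge. No gene of any list passed the adjusted threshold. Assembly factors of the complexes were higher in 27 of 36 tested, with a median log2 difference of 0.27. The groups did not overlap in 9 higher (25%, against 17.7% of all genes) and 1 lower (2.78%, against 22%). Both directions together made 27.8% against 39.7% of all genes. Ttc19, an assembly factor of complex III, had 5.51 and 5.93 in deleted and 4.39 and 3.10 in wild type, a difference of 1.98 (SE 0.51, limma adjusted p = 0.315). Cox10, which makes the heme of complex IV, had 7.12 and 7.78 against 5.44 and 6.48, a difference of 1.49, and Uqcc1, another complex III factor, had 0.90. Ttc19 and Cox10 were clear of overlap. Since the 3′ bias moved with the group, the same limit holds for these genes.

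Cytochromes c and the enzymes of coenzyme Q synthesis were higher in 5 and lower in 8 of 13, with a median of -0.09. The groups did not overlap in 0 higher (0%, against 17.7% of all genes) and 5 lower (38.5%, against 22%). Both directions together made 38.5% against 39.7% of all genes. Coq8a, a kinase-like protein of coenzyme Q synthesis, had a difference of -1.10, Coq10b 0.74 and Coq6 -0.62. Pyruvate dehydrogenase and citrate cycle genes were higher in 12 of 21, with a median of 0.13. The highest were Idh3a at 0.98 (SE 0.62), Ogdh at 0.96 (SE 0.58) and Idh2 at 0.84 (SE 0.37), all enzymes of the cycle. Idh3a and Ogdh overlapped and Idh2 did not. The lowest, Suclg2 at -0.70 and Pcx at -0.68, overlapped. Mitochondrial biogenesis factors were higher in 8 of 19, with a median of -0.06. Among them Pprc1, a coactivator, had 0.92, Gabpa, a GABP subunit, -0.90, and Myc -0.79.

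Carriers and coupling factors were higher in 4 of 8, with a median of 0.05. Atpif1, the inhibitor of ATP synthase, had a difference of -0.53, the outer membrane channel Vdac2 0.52, and the ADP/ATP carrier Slc25a5 0.31. Import, folding and antioxidant genes were higher in 6 and lower in 13 of 19, with a median of -0.19, and without overlap in 2 higher (10.5%, against 17.7% of all genes) and 8 lower (42.1%, against 22%). The largest differences in that list were in Txnrd2 (-1.09) and Gpx4 (-0.87), enzymes that remove peroxides or keep thiols reduced, and in the protease Lonp1 (-0.82). Mitochondrial ribosomal proteins, which translate the mitochondrially encoded subunits, were higher in 36 and lower in 39 of 75, with a median of -0.01, near that of all genes. Mrps5 had 1.84 (limma adjusted p = 0.219), Mrps6 -1.14 and Mrpl58 1.07. The lists were compared with the all-gene median by description only.

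**Figure D5:**
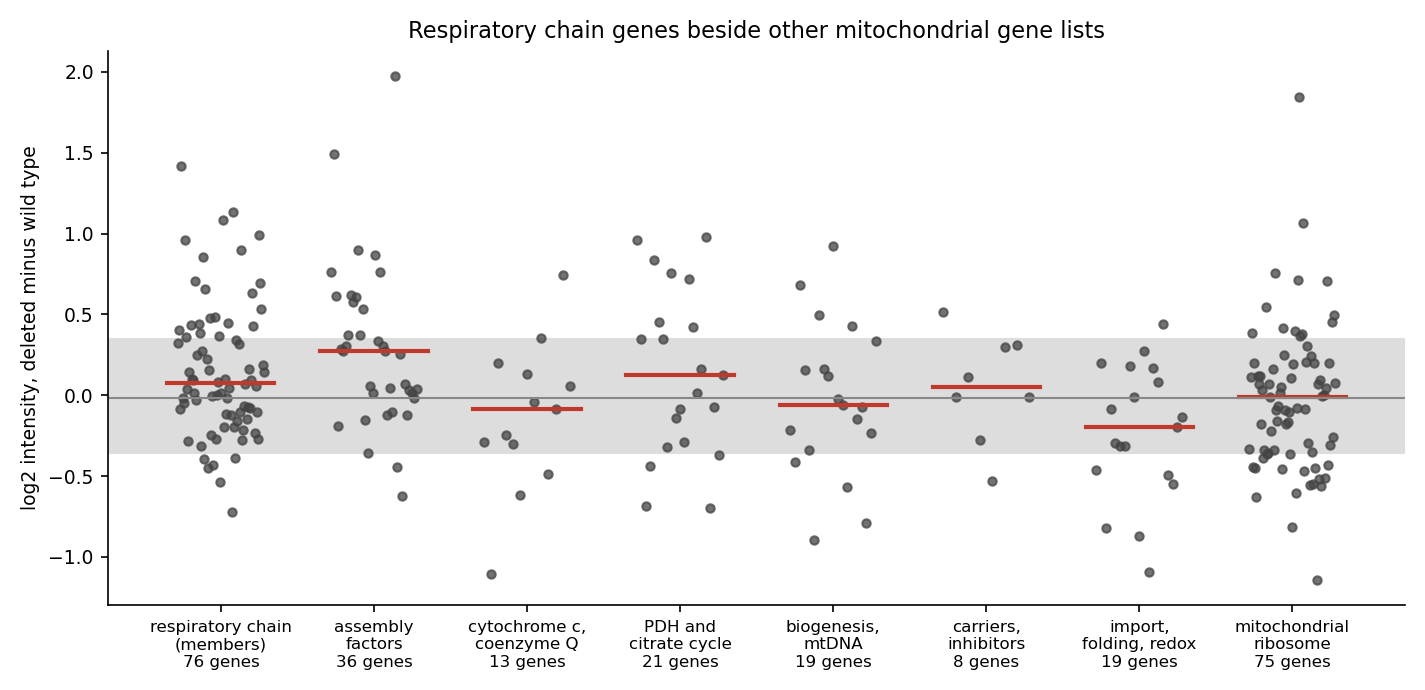
Log2 difference, deleted minus wild type, of each gene tested (points) with the median of each list (red line), for the respiratory chain members and 7 lists of related mitochondrial genes; the grey band spans the quartiles of all genes tested and the grey line their median. Assembly factors have the highest median, 0.27, and import, folding and antioxidant genes the lowest, -0.19, and the points of every list lie on both sides of 0.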

How the data were processed

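RNA from 4 samples was extracted with Qiagen RNeasy, amplified with Ambion Message Amp II and labelled with biotin, per the labels. The authors deposited 1 table of linear intensity values, which per the submitters' processing notes came from GCRMA 1.1.3; the array medians were 8.38 to 8.94. GCRMA shrinks dim probe sets toward a common background, and 35.8 to 36.1% of probe sets reached a log2 of 4.

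The platform annotation names a single gene for 34958 of 45101 probe sets, several for 932 and none for 9211; 64 controls, 13 of them with a symbol, were set aside, leaving 34945. Values were log2 transformed without a pseudocount. Each gene took its probe set with the highest mean over all arrays, and genes with a mean of at least 4 were tested (8629 of 18193). Deleted was compared with wild type in limma 3.58.1 (R 4.3.3; lmFit, eBayes with an intensity trend, 2 residual degrees of freedom, two-sided). P-values were adjusted by Benjamini-Hochberg across the 8629 genes, with a threshold of 0.05. The script was tested on simulated data. With 2 against 2 arrays, no permutation test of a single value could reach that threshold, so none was run. Non-overlap means that both values of a group lie above, or both below, those of the other.

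The labels give both groups replicate numbers 1 and 2. Deviations of same-numbered arrays from their group means correlated at -0.298 over 8629 genes, so the numbers were not taken to pair the arrays. Alternatives covered the filter, probe set choice, normalization, low values, the prior, the replicate block and leaving out each array.

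Genes named were core and tissue-isoform subunits, the 4 largest differences of each complex, the 5 lowest p in each direction, members with probe sets of opposite sign, the 3 largest differences of each list, those next to the filter, and Foxp3; a few others were named after their values were seen. The members, the pathway lists and the cell marker lists (T, CD8 T, B, myeloid, natural killer, erythroid and plasma cells) were chosen with earlier results of these data known. CD8 T cell and plasma cell markers were all below the filter (0 of 2 and 0 of 3), and 1 of 2 erythroid markers was above it. Promoter windows were RefSeq's for GRCm38.p6, matched by Entrez gene identifier.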

Additional observations from a re-analysis of the deposited data

Results flagged for a closer look

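Probe sets that the platform assigns to several gene symbols were outside the comparisons, and some of them gave a signal above the wild-type level. Of 10 such sets that name a respiratory chain gene, 6 were above the filter. A set shared by Ndufs5 and a pseudogene of it had log2 values of 8.89 and 8.95 in deleted and 8.62 and 8.67 in wild type, a difference of 0.27. A set shared by Ndufb4 and its copies Ndufb4b and Ndufb4c had 7.88 and 7.07 against 6.97 and 7.04, a difference of 0.47, in which the lower deleted value lay just above wild type. A set shared by Ndufs6 and Ndufs6b had 10.41 and 10.40 against 10.14 and 10.38, a difference of 0.15. A set shared by Ndufab1 and its pseudogene was lower without overlap, at -0.49.

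The control probe sets against the 5′ ends of beta-actin and Gapdh were also outside the comparisons. Beta-actin's 5′ set had log2 values of 9.97 and 10.64 in deleted and 7.34 and 8.18 in wild type, a difference of 2.54, while its 3′ set differed by 0.30. Gapdh's 5′ set had 6.61 and 8.87 against 5.58 and 5.60, a difference of 2.15, while its 3′ set differed by 0.02. Their part in the respiratory chain values was not tested.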

How the results depend on the processing

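No member passed the adjusted threshold of 0.05 under any alternative run, and the lowest adjusted p of a member ranged from 0.166 to 0.736 over them. Over all genes tested, 0 passed in the chosen fit, 27 with a stricter filter (a mean log2 of at least 6), 30 with a gene's probe sets averaged, 60 with each array centred on its median and 39 with quantile normalization; 0 passed under every other alternative and with any array left out. The replicate numbers of the labels did not pair the arrays (r = -0.298), and with the replicate number as a block 0 genes and 0 members passed, so the block changed no call. With the numbers crossed, a pairing added after seeing the data, 0 genes and 0 members passed.

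The members' median difference of 0.078 was 0.042 without the filter, 0.18 with probe sets averaged, 0.039 with quantile normalization, and 0.0054 to 0.15 with an array left out. For complex I (0.072) quantile normalization gave 0.019 and leaving out an array -0.019 to 0.11. For complex II (-0.08) averaged probe sets gave 0.21 and leaving out an array -0.22 to 0.064. For complex III (0.33) averaged probe sets gave 0.086, single probe sets -0.094 and leaving out an array 0.076 to 0.24. For complex IV (0.072) no filter gave -0.0084, averaged probe sets 0.32, single probe sets 0.15, counting Ndufa4 and Ndufa4l2 with it 0.042 and leaving out an array -0.037 to 0.13. For complex V (0.23) leaving out an array gave 0.10 to 0.30. Members without overlap and higher numbered 19 (25%, against 17.7% of all genes), or 36 among single probe sets (25.7%, against 19% of all probe sets). Those lower numbered 14 (18.4%, against 22%), or 22 among single probe sets (15.7%, against 20.8%) and 7 with probe sets averaged. With an array left out there were 28 to 37 higher and 20 to 24 lower, where fewer values make overlap rarer. The averaged and left-out counts are given without a share over all genes and are not read as a result about the members.

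Of 46 named members, 21 kept their sign under every alternative and 25 turned it under at least 1. These counts do not include disagreement between the single probe sets of a gene. Atp5a1, Sdhc and Ndufs4 are among the 21, although their sets differed in sign. The filter, the prior and the replicate block left each difference unchanged and so could not turn a sign. Averaging probe sets turned Atp5c1 to -0.32, Atp5d to 0.22, Atp5h to 0.23, Atp5j2 to 0.011, Atp5o to 0.18, Cox7a2l to 0.13, Ndufb5 to 0.21, Ndufb9 to 0.020, Ndufs8 to 0.0064, Sdha to 0.10, Sdhd to 0.45 and Uqcr10 to -0.14. Centring turned Atp5d to 0.0075 and Ndufa4 to 0.011, and quantile normalization turned Atp5d to 0.0036 and Sdhaf3 to -0.025. With an array left out, the sign of these turned within the ranges Atp5c1 -0.24 to 0.88, Atp5d -0.19 to 0.18, Atp5g3 -0.028 to 0.48, Atp5h -0.17 to 0.071, Atp5o -0.21 to 0.059, Cox5a -0.044 to 0.54, Cox5b -0.085 to 0.027, Cox6b1 -0.33 to 0.10, Cox7a2l -0.37 to 0.20, Cox7c -0.70 to 2.49, Ndufa4 -0.053 to 0.050, Ndufab1 -0.11 to 1.01, Ndufs1 -0.013 to 2.0, Ndufs7 -0.23 to 0.41, Ndufs8 -0.29 to 0.26, Ndufv1 -0.53 to 0.044, Sdhaf3 -0.92 to 0.95, Sdhb -0.20 to 0.17 and Uqcrfs1 -0.12 to 1.0. The cause was not tested. Precision rests on 2 arrays per group with 2 residual degrees of freedom, and no difference is read from the 10 members below the filter.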
